A study of Mus musculus with 32 samples.

Results

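The levels of 10 Notch pathway genes were measured across 3 liver cell types and 2 tumor sources of a mouse model of colorectal cancer (CRC) liver metastasis. They comprised the receptors *Notch1*, *Notch2*, *Notch3* and *Notch4*, the ligands *Dll1*, *Dll4*, *Jag1* and *Jag2*, and the targets *Hes1* and *Hey1*. The genes were found by their symbols in the annotation of the array, which held 34821 gene names, and gave 13 of its 55681 probes. *Notch1*, *Notch2* and *Dll1* had 2 probes each and every other gene had 1. In the study, Balb/c males of 6 to 8 weeks received C26 colon carcinoma cells, a mouse line syngeneic with this strain, or PBS into the spleen. Liver cells were isolated 14 days later and were cultured for at most 24 h. The 8 groups held 4 samples each, namely control and tumor microenvironment (TME) endothelial cells (EC and ET), Ito cells (IC and IT) and Kupffer cells (KC and KT), liver metastasis cells (TM) and CRC primary cells (TP). Control cells came from PBS mice and TME cells from tumor-bearing mice, and no engineered allele was named for any group. Endothelial and Ito cells were enriched on Percoll gradients and Kupffer cells by adherence. How the TM and TP cells were obtained was not given in the sources used here. The samples were called biological replicates, and how many mice each one came from was not given.

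Notch receptors are cleaved after binding a Delta-like or Jagged ligand on a neighbouring cell. ADAM proteases and then the gamma-secretase complex release the intracellular part of the receptor, which joins the DNA-binding protein Rbpj and Mastermind co-activators in the nucleus and turns on genes of the Hes and Hey families of transcriptional repressors. Endothelial cells use the pathway, mainly through Dll4, Jag1, Notch1 and Notch4, in arterial specification and sprouting, and in the liver Notch signals also take part in bile duct formation, in Ito cell activation and in macrophage differentiation.

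Each of the 16 arrays carried 2 samples in different dyes, and every sample was read as a single channel. Controls and TM were labeled with Cy3 and TME samples and TP with Cy5, so the dye and the TME or the tumor source cannot be told apart. These are the dyes listed for each sample, although the labeling protocol speaks of cRNA in both dyes for every RNA, and no dye swap was among the arrays. Endothelial and Ito arrays shared a slide, as did Kupffer and tumor arrays, so Kupffer cells and slide cannot be told apart in comparisons with the other liver cells. Values below are log2 of the quantile-normalized intensity, with the mean and SD over 4 samples where 1 value is given. A probe is called well above background by the flag of the scanner software, which between 38.4% and 57.1% of the spots carried per sample. The number of arrays limits the precision.

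Marker genes were checked before the Notch genes. The mean log2 intensity of 10 endothelial markers was highest in EC (12.19 to 12.45), against 11.13 to 11.61 in IC and 10.84 to 11.31 in KC. That of 9 Kupffer markers was 13.16 to 15.10 in KC, 13.16 to 14.71 in IC and 11.74 to 12.04 in EC. The Ito markers as a list did not set the Ito samples apart. The mean of 10 Ito markers was lower in IC (8.19 to 8.96) than in EC (9.38 to 9.81), and *Lrat*, the retinol esterifying enzyme that marks these cells, was well above background in 2 of the 4 IC samples, though its mean was highest in IC (4.16 against 3.47 in EC). *Des*, the desmin gene, averaged 5.62 in IC and 7.75 in EC. *Rgs5* was also higher in IC (11.25) than in EC (10.57), and the other 8 of the list were lower. The study's methods checked the purity of the fractions by immunochemistry, with ASMA for Ito cells. Its transcript, *Acta2*, averaged 6.45 in IC and 8.61 in EC. Hepatocyte markers were highest in the Ito groups, at 11.64 to 12.64 in IC and 11.47 to 12.53 in IT. The samples are therefore called Ito by their label alone, and fewer cells of a type and less RNA per cell cannot be told apart in such bulk samples. In the tumor cells, endothelial markers lay at 4.20 to 5.16 in TM and 4.28 to 4.88 in TP, with *Cdh5*, *Stab2*, *Lyve1*, *Tek* and *Clec4g* not well above background in any of these samples. *Kdr* was the exception, at 12.61 in TM and 12.59 in TP against 11.87 in EC and well above background in all 8, and *Eng*, *Pecam1*, *Stab1* and *Tie1* were so in part of the tumor samples, at levels below EC.

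Array 4 of the Ito and of the Kupffer cells ran opposite to arrays 1 to 3, in the neutrophil markers and over 17050 probes. Over these probes, its TME minus control differences correlated with the mean of the other arrays at -0.66 in Ito and -0.60 in Kupffer cells. For each of arrays 1 to 3 this correlation was 0.19 to 0.28 in Ito and 0.41 to 0.47 in Kupffer cells. Neutrophil markers stood at 5.38, 5.51 and 5.23 in IC replicates 1 to 3 but at 9.56 in IC replicate 4, and at 9.36, 10.32 and 8.63 in IT replicates 1 to 3 but at 5.84 in IT replicate 4. In Kupffer cells the same values were 6.96, 6.83, 7.29 and 9.50 in KC and 9.28, 9.34, 9.26 and 7.10 in KT. T cell markers stood at 6.94, 6.72, 6.93 and 9.28 in IC and 9.19, 9.24, 9.04 and 7.16 in IT. In Kupffer cells they stood at 7.10, 7.19, 8.41 and 8.29 in KC and 8.19, 8.20, 8.23 and 7.02 in KT, with KC replicate 3 also high. Over the 17050 probes well above background in every sample, KC replicate 4 had a mean correlation of 0.9725 with the other KC samples and of 0.9959 with KT replicates 1 to 3, and IT replicate 4 one of 0.9580 with the other IT samples and of 0.9921 with IC replicates 1 to 3. The other 2 samples of these arrays were closer to their own group, KT replicate 4 at 0.9872 against 0.9812 with KC and IC replicate 4 at 0.9679 against 0.9675 with IT. Those values with KC and IT take in KC replicate 3 and IT replicate 2. These had the lowest mean correlation with their own group among Kupffer and Ito samples, at 0.9548 and 0.9165. For replicates 1 to 3 the mean correlations take in replicate 4 itself. KC replicates 1 and 2 and IT replicates 1 and 3 were by this measure also closer to the partner group, at 0.9893, 0.9869, 0.9762 and 0.9800 against 0.9804, 0.9786, 0.9593 and 0.9615. No sample was moved to another group. Differences of the members that involve these groups were fitted with and without array 4, and the second value is given where the call changed. Other samples stood apart. IT replicate 2 had the lowest Kupffer (11.38) and endothelial (10.16) and the highest epithelial (8.21) and smooth muscle and pericyte (6.92) marker means of the Ito cells. Its epithelial markers summed to a linear intensity of 153226, against 4674 to 5201 in the other IT samples. Within IT it was highest for *Notch2*, *Dll1*, *Jag1* and *Hes1* and lowest for *Notch4*, but neither for *Notch1* and *Hey1*. The part of those other cells in its values was not tested. TM replicates 1 and 4 correlated more with TP (0.9866 and 0.9888) than with the other TM samples (0.9609 and 0.9628).

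**Figure D1:**
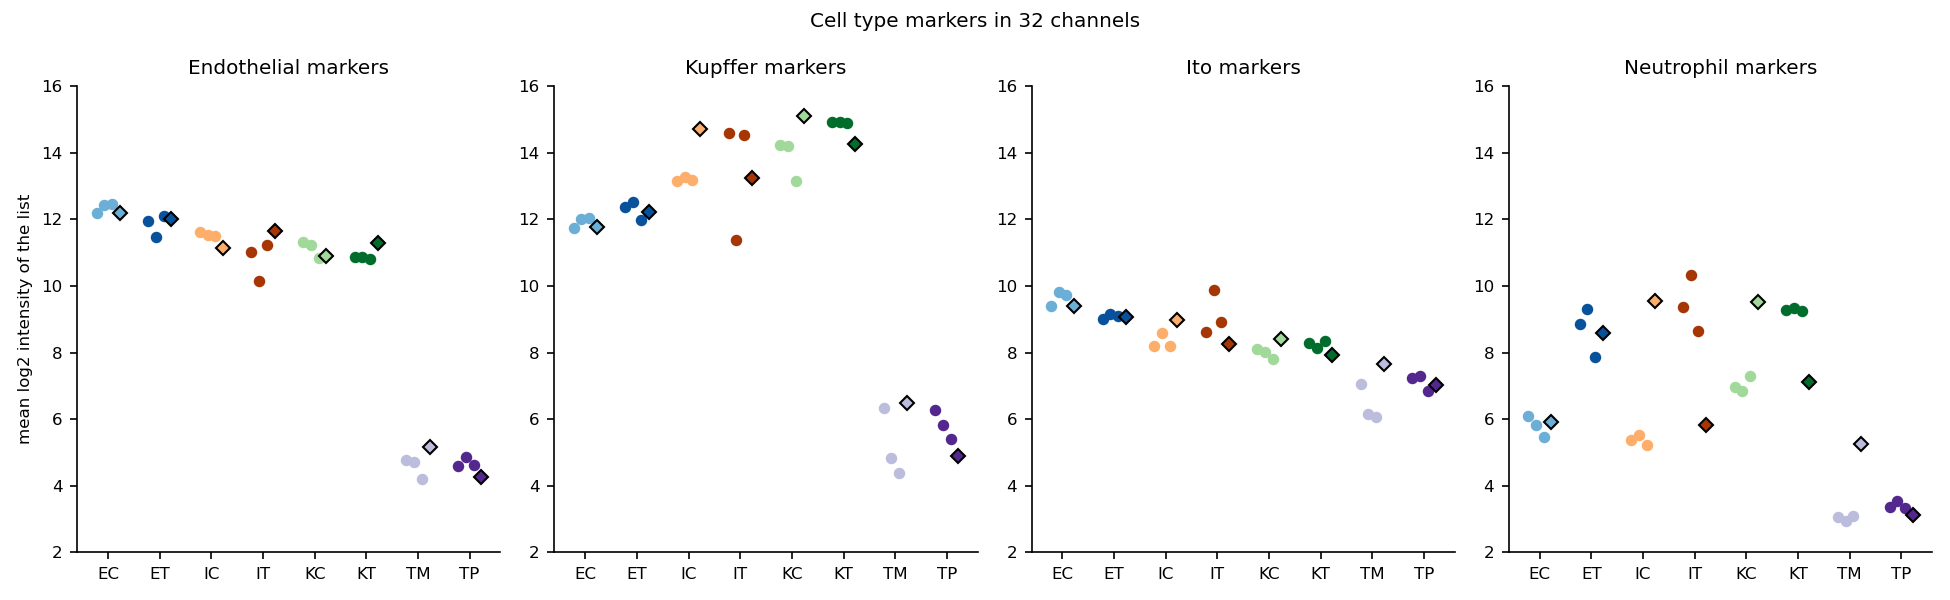
Mean log2 intensity (y axis) of the endothelial, Kupffer, Ito and neutrophil marker lists in each of the 32 samples, by group (x axis), with a diamond for replicate 4 and circles for replicates 1 to 3. Replicate 4 of the Ito and Kupffer groups lies with the opposite group in the neutrophil panel (9.56 in IC and 5.84 in IT), and the Ito markers are not highest in the samples labeled Ito.

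Most of the differences called in these genes lay between cell types. *Notch4* and *Dll4* were brightest in endothelial cells and *Notch2* in Kupffer cells. *Notch2*, *Notch4*, *Dll1* and *Hey1* were called lower in both tumor sources than in Kupffer cells, and *Jag1* in TM alone. *Dll4* was called lower in both too, but was well above background in no tumor sample and in part of the Kupffer samples. The TM calls of *Notch2* and *Dll4* were lost without array 4. In the TME, *Dll4* fell in endothelial cells, and no member passed the test in Ito or Kupffer cells. With 1 reading probe per gene, the one well above background in most samples, and an adjusted p under 0.05 in limma over all 55681 probes, 0 of 10 members were higher and 1 was lower in ET than in EC, where 1.14% of all probes were called. None of the 10 passed in IT against IC (0.289% of all probes) or in KT against KC (0.436%), where 0 and 2 members had an unadjusted p under 0.05 and the t-test of the study's methods called 0 and 0 after adjustment. Of the members, 1 was higher in TP than in TM (3.01%), namely *Jag2*, which was well above background in no sample. Between control cells, 3 members were higher and 1 lower in EC than in IC (9.89% of all probes), 1 higher and 3 lower in KC than in EC (21%), and 2 higher in KC than in IC (14.8%). Between TME cells, 2 were higher in ET than in IT (8.26%), 1 higher and 2 lower in KT than in ET (21.8%), and 3 higher in KT than in IT (15.2%). TM lay below KC in 6 members (39.4%), and TP below KT in 5 and above it in 1, again *Jag2* (43.6%). Exact permutation of 4 samples against 4 cannot give a two-sided p below 0.0286, so single genes rest on the fit across all probes. Without array 4 of the Ito and Kupffer cells, 7.66% of all probes were called in IT against IC and 3.85% in KT against KC. The counts of members became 2 in EC against IC, 1 in KT against KC, 2 in KT against IT and 4 in TM against KC, and that of each other comparison of these groups did not change. At the study's thresholds of adjusted p under 0.001 and at least 4-fold, 0.165%, 0.0916%, 0.111%, 0.408%, 1.24%, 2.63%, 0.927%, 0.871%, 2.32%, 0.937%, 14.3% and 15.9% of all probes were called in ET-EC, IT-IC, KT-KC, TP-TM, EC-IC, KC-EC, KC-IC, ET-IT, KT-ET, KT-IT, TM-KC and TP-KT, and of the members 0, 0, 0, 1, 1, 1, 0, 2, 0, 0, 4 and 3. The differences between TME responses, endothelial minus Ito, endothelial minus Kupffer and Ito minus Kupffer, were called for 0 members and for 0.111%, 0.0808% and 0.00359% of all probes.

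**Figure D2:**
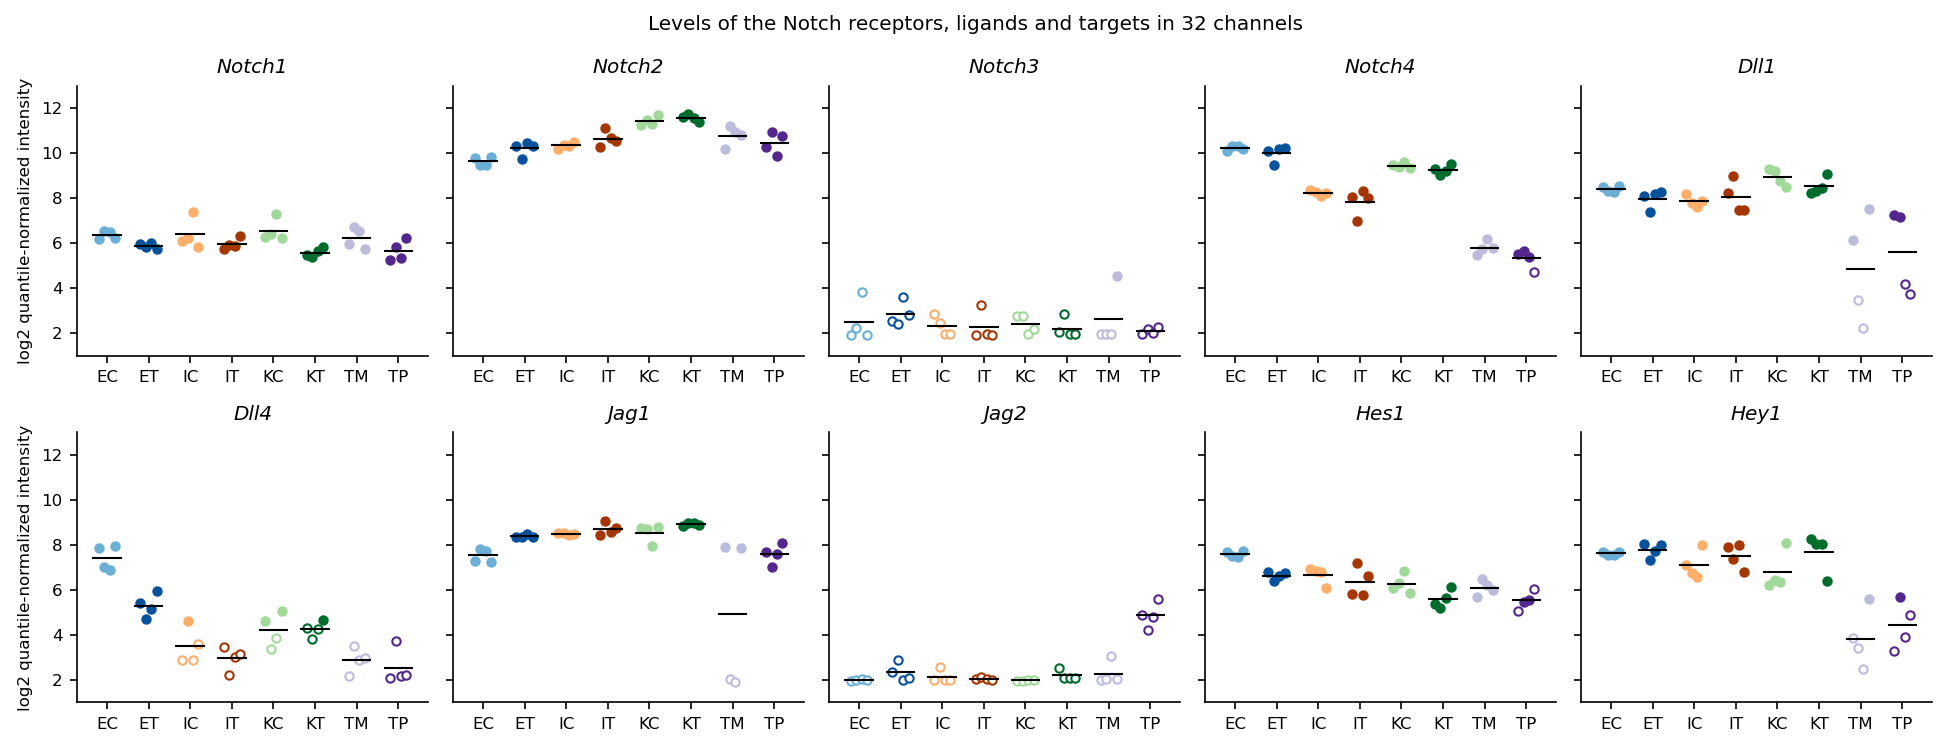
Log2 quantile-normalized intensity (y axis) of the reading probe of each gene in the 32 samples, by group (x axis), with filled points for samples well above background, open points for the others and a line at the group mean. *Notch4* falls from 10.25 ± 0.11 in EC to 5.33 ± 0.40 in TP, *Dll4* is filled in all samples of EC and ET alone, and *Jag2* is open everywhere. Heights of different genes cannot be compared, since each probe has its own brightness.

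Among the receptors, *Notch4*, whose expression is known mainly from endothelium, had the widest range. Its log2 intensity was 10.11, 10.33, 10.33 and 10.22 in EC replicates 1 to 4 and 10.12, 9.49, 10.22 and 10.25 in ET. In KC it was 9.47, 9.38, 9.60 and 9.37, and in KT 9.29, 9.06, 9.22 and 9.53. In IC it was 8.38, 8.30, 8.10 and 8.26, and in IT 8.08, 7.01, 8.31 and 8.03. Endothelial cells were thus brightest, Kupffer cells followed and Ito cells came last of the liver cells, with no overlap between the 3 control groups. EC exceeded IC by 1.99 (SE 0.22, adjusted p = 9.62e-07) and KC exceeded IC by 1.20 (SE 0.22, adjusted p = 0.000408), whereas KC lay below EC by a log2 difference of -0.79 (SE 0.22, adjusted p = 0.0101). The order repeated in the TME, with ET above IT by 2.16 (SE 0.22, adjusted p = 3e-07), KT above IT by 1.42 (SE 0.22, adjusted p = 6.77e-05) and KT below ET at -0.74 (SE 0.22, adjusted p = 0.0148), where the groups overlapped. All 6 differences were called without array 4 too, but that between KT and ET was not called without replicate 1. All 10 endothelial markers were well above background in every Kupffer and Ito sample, and their part in the *Notch4* level of these cells was not tested. EC to IC is a contrast within slide and dye, while those with Kupffer cells also cross the slides.

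In tumor cells *Notch4* read 5.49, 5.76, 6.20 and 5.82 in TM and 5.53, 5.66, 5.39 and 4.75 in TP, lower than in every liver sample. TM lay -3.64 from KC (SE 0.22, adjusted p = 2.07e-13) and TP -3.94 from KT (SE 0.22, adjusted p = 3.82e-14), within a slide and a dye. TME and control did not differ past the threshold in any cell type, with differences of -0.23 (95% interval -0.68 to 0.23) in endothelial, -0.40 (-0.86 to 0.05) in Ito and -0.18 (-0.64 to 0.27) in Kupffer cells. Over the 32 samples, the genes most like *Notch4* among 13143 compared were *Prkch* (Pearson's r = 0.97), *Dnase1l3* and *Robo4* (both 0.97), the last an endothelial guidance receptor. These values describe samples that share arrays, dyes and cell types.

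*Notch2*, the receptor for which Jag1 is a main ligand in bile duct formation, ran in another order. Its reading probe gave 11.25, 11.51, 11.32 and 11.71 in KC and 11.62, 11.77, 11.56 and 11.41 in KT. IC gave 10.22, 10.40, 10.32 and 10.50 and IT 10.28, 11.13, 10.69 and 10.56, and EC gave 9.78, 9.51, 9.50 and 9.86 and ET 10.35, 9.77, 10.46 and 10.31. Kupffer cells therefore lay above both other types, without overlap. KC exceeded EC by 1.78 (SE 0.22, adjusted p = 9.19e-07) and IC by 1.09 (SE 0.22, adjusted p = 0.000811), and KT exceeded ET by 1.37 (SE 0.22, adjusted p = 3.04e-05) and IT by 0.93 (SE 0.22, adjusted p = 0.00371). EC lay below IC at -0.69 (SE 0.22, adjusted p = 0.0386), a call that was lost without array 4 (adjusted p = 0.0957) and whichever replicate was left out. ET against IT gave -0.44 (SE 0.22, adjusted p = 0.251). TM read 10.19, 11.24, 10.94 and 10.82 and TP 10.30, 10.94, 9.91 and 10.75. TP fell below KT at -1.11 (SE 0.22, adjusted p = 9.7e-05), and TM below KC at -0.65 (SE 0.22, adjusted p = 0.0168), which missed the threshold without array 4 (adjusted p = 0.0759). *Notch2* was higher on 4 of 4 arrays in ET than in EC, by 0.56 (SE 0.22, adjusted p = 0.363).

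The 2 probes of *Notch1* and of *Notch2* let each receptor be read at different places of its transcript. A 60-base probe of each is shown, since the contrasts below turn on it, the reading probe of *Notch1* and the other probe of *Notch2*. The annotation in the scanner files places the *Notch1* probe at chr2:26319440-26319499 on the minus strand and the *Notch2* probe at chr3:97951233-97951292 on the plus strand. The build was not named, and of the 13 probes of the 10 genes 1 lay inside the span of its gene in GRCm38.p6, so these positions do not match that build. Each is printed 5′ to 3′ as deposited, with no part set off.
Notch1: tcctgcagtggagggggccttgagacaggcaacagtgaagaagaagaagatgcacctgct
Notch2: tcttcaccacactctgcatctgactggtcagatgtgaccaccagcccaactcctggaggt

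By the printed probe, *Notch1* was well above background in all 32 samples, with group means between 5.60 ± 0.19 in KT and 6.57 ± 0.51 in KC. No difference between cell types passed. The probe read 6.19, 6.57, 6.50 and 6.26 in EC and 5.99, 5.82, 6.01 and 5.76 in ET, lower on 4 of 4 arrays, at -0.48 (SE 0.28, adjusted p = 0.842). KC gave 6.28, 6.40, 7.33 and 6.26 and KT 5.48, 5.41, 5.67 and 5.83, again lower on 4 of 4 arrays and without overlap. That difference, -0.97 (SE 0.28, adjusted p = 0.206), passed without array 4 at -1.15 (adjusted p = 0.0441). KC replicate 3 was the highest of its group. The other *Notch1* probe, nearer the 3′ end, gave 0.21 for the same difference (adjusted p = 0.990), and 0.09 without array 4, so it did not show this fall.

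The probes of *Notch1* also parted in tumor cells. The 3′ probe read 2.16, 2.15, 3.14 and 2.14 in TM and 3.33, 3.95, 2.18 and 2.08 in TP, not well above background in any of the 8 samples, whereas the printed probe read 5.99, 6.74, 6.57 and 5.75 and 5.25, 5.83, 5.33 and 6.22. By the 3′ probe TM was at least 1.21-fold below KC (adjusted p = 5.07e-06) and TP at least 1.15-fold below KT (adjusted p = 2.68e-05), bounds set by the lowest signal measured above background. The same probe called *Notch1* lower in KC than in EC, at -1.08 (SE 0.37, adjusted p = 0.0371), where the printed one gave 0.19 (adjusted p = 0.749). It also called *Notch1* higher in EC than in IC, by 1.15 (SE 0.37, adjusted p = 0.0476), where the printed probe gave -0.03 (adjusted p = 0.999). Both of these calls between liver cells were lost without array 4 (-1.09, adjusted p = 0.0600, and 0.94, adjusted p = 0.157), while those against tumor cells held. For *Notch2* the printed probe was dimmer and gave the same order, with KT above ET by 1.53 (SE 0.32, adjusted p = 0.000851) and KC above EC by 1.00 (SE 0.32, adjusted p = 0.0271). Without array 4 the former held and the latter did not (0.84, adjusted p = 0.101). It differed in the tumors, where TP (4.71, 3.37, 4.09 and 3.53) lay without overlap below TM (4.97, 5.61, 5.49 and 4.82), at least 1.05-fold (adjusted p = 0.0247), and where the brighter probe gave -0.32 (adjusted p = 0.505). The cause of the split was not tested.

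**Figure D3:**
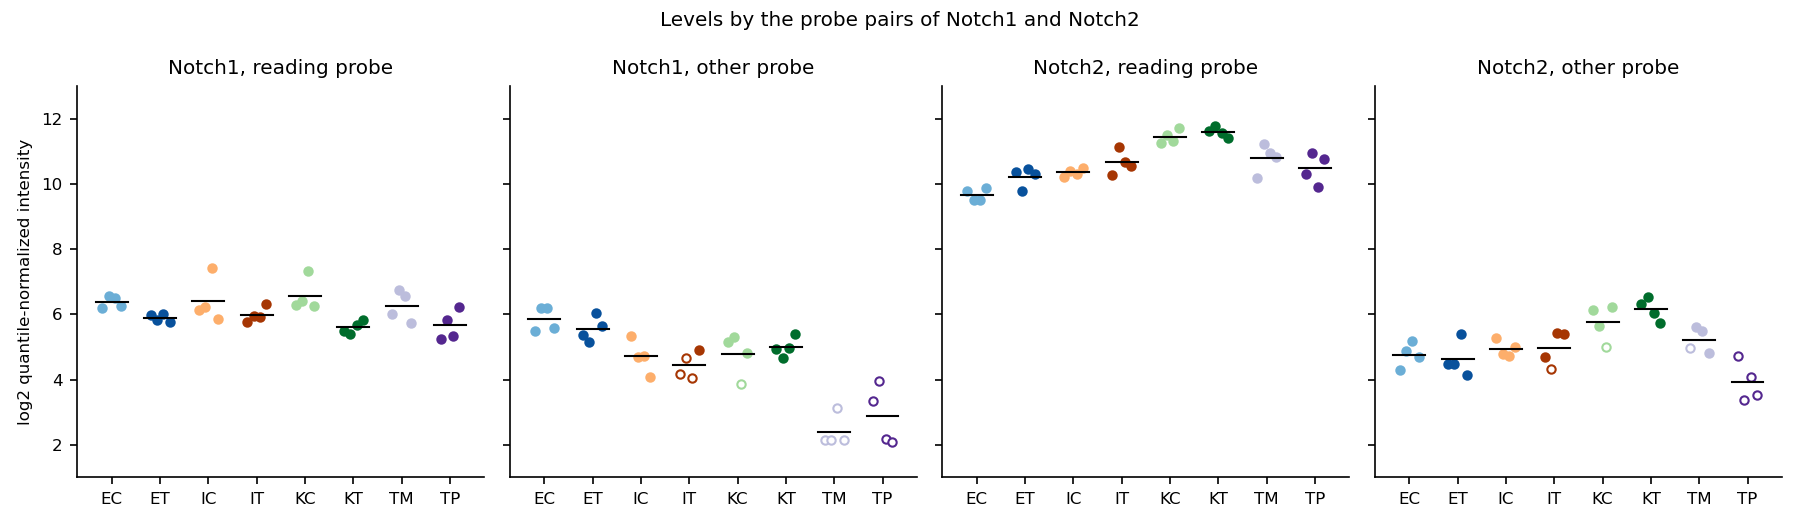
Log2 intensity (y axis) by group (x axis) for both probes of *Notch1* and both probes of *Notch2*, with filled points for samples well above background and a line at the group mean. The other *Notch1* probe is open in all TM and TP samples (2.08 to 3.95), where the reading probe is filled (5.25 to 6.74).

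*Notch3*, a receptor of pericytes and smooth muscle, was well above background in 1 of 32 samples, TM replicate 4 at 4.55. The other samples lay between 1.92 and 3.83, and no fold is given for any comparison.

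Of the ligands, *Dll4*, which endothelial cells present to Notch1 and Notch4, was the one called in the TME by the fit over all groups. It read 7.87, 7.01, 6.91 and 7.94 in EC and 5.40, 4.69, 5.14 and 5.95 in ET, all well above background, so that every ET sample lay below every EC sample. On the 4 arrays the differences were -2.46, -2.32, -1.77 and -1.99, with a mean of -2.13 (SE 0.43, adjusted p = 0.00774), a 4.39-fold fall. In Ito cells the differences on the arrays were 0.58, -2.40, 0.18 and -0.47 (adjusted p = 0.734) and in Kupffer cells -0.31, 0.46, 0.41 and -0.40 (adjusted p = 1.00). The endothelial change did not differ past the threshold from the Ito change, at -1.61 (SE 0.61, adjusted p = 0.874), or from the Kupffer change, at -2.17 (SE 0.61, adjusted p = 0.399). *Dll4* was well above background in 1 of 4 IC, 0 of 4 IT, 2 of 4 KC and 1 of 4 KT samples. A fall in those cells could hardly be measured, so this comparison cannot decide whether the changes differ. Neutrophil markers moved with the TME label in the same samples, with a mean log2 intensity of 5.46 to 6.11 in EC and 7.85 to 9.31 in ET. Of these 5, 2 to 4 were well above background in each EC sample and 5 in each ET sample, and their summed linear intensity was 460 to 798 in EC and 3223 to 7306 in ET. T cell markers lay at 7.21 to 7.44 in EC and 8.28 to 8.53 in ET. Of these 5, 4 were well above background in each EC sample and 5 in each ET sample, and their summed linear intensity was 1511 to 1578 in EC and 2030 to 2436 in ET. The 9 Kupffer markers lay at 11.74 to 12.04 in EC and 11.98 to 12.52 in ET, with summed intensities of 52682 to 74409 and 83311 to 125764. The 5 smooth muscle and pericyte markers lay at 6.42 to 6.86 and 6.19 to 6.77, with summed intensities of 43680 to 125471 and 9731 to 26570. The endothelial list, all 10 well above background in both groups, lay at 12.19 to 12.45 in EC and 11.48 to 12.10 in ET. Hepatocyte markers (9.67 to 9.87 and 8.81 to 9.13) and Ito markers (9.38 to 9.81 and 8.99 to 9.17) were lower in ET without overlap. Their part in the fall of *Dll4* was not tested. With normexp background correction or loess the change was -1.17 (adjusted p = 1.88e-05) or -1.38 (adjusted p = 4.15e-07). With the TP minus TM difference subtracted, which carries the same dyes and also the difference between the tumor sources, the change was -1.80 (adjusted p = 0.216). *Dll4* was well above background in no TM or TP sample, so this subtraction cannot measure a dye effect on it. Without replicate 1 or 2 the adjusted p of the change was 0.0918 or 0.0501.

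Among control cells *Dll4* was well above background throughout in EC and in part of the samples elsewhere. IC gave 2.87, 4.63, 2.86 and 3.62, of which replicate 2 was well above background, and KC gave 4.63, 3.37, 3.87 and 5.06, of which replicates 1 and 4 were. EC exceeded IC by 3.94 (SE 0.43, adjusted p = 7.9e-07), and KC lay below EC at -3.19 (SE 0.43, adjusted p = 4.33e-06). These sizes rest on 1 of 4 IC and 2 of 4 KC samples well above background. No IT sample (3.45, 2.22, 3.04 and 3.15) was well above background, so ET was at least 1.23-fold above IT (adjusted p = 0.000708), with measured means of 5.29 ± 0.53 and 2.97 ± 0.52. KT replicate 4 was well above background among 4.32, 3.83, 4.29 and 4.66, and KT was at least 1.07-fold above IT (adjusted p = 0.0391), a call lost without array 4 (adjusted p = 0.120). KT against ET gave -1.02 (SE 0.43, adjusted p = 0.0983). No TM or TP sample was well above background (2.08 to 3.72). TM lay at least 1.03-fold below KC (adjusted p = 0.0128), lost without array 4 (adjusted p = 0.0820), and TP against KT gave an adjusted p of 0.00161 with no fold, since no bound above 1 could be set. Its closest patterns over the 32 samples were those of *St3gal4* (r = 0.91), *Sox18* (0.89), an endothelial transcription factor, and *Nmb* (0.89), as a description.

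Because *Notch4* and *Dll4* were both brightest in endothelial cells, the 250 bases before their transcript starts are shown, as RefSeq gives them on GRCm38.p6. They lie at chr17:34564045-34564294 and chr2:119325534-119325783, both on the plus strand. Both strands were searched for TGGGAA, the core bound by Rbpj, and for AGGAAG and CCGGAA, forms of the core bound by ETS factors, which do not overlap one another in these windows. Capitals mark AGGAAG or its reverse complement CTTCCT, the only one of these found. A transcript start was listed for 8 of the 10 genes, with none for *Hes1* and *Hey1*.
Notch4: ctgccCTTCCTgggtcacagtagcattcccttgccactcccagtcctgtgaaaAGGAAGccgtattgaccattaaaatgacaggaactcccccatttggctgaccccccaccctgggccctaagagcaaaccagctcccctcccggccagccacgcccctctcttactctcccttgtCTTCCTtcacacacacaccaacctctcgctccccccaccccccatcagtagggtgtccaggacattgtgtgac
Dll4: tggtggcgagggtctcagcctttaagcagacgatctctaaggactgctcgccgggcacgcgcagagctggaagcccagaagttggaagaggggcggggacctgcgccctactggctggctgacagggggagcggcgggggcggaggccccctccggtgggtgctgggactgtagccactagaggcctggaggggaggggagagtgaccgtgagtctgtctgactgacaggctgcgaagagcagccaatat

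The *Notch4* window held AGGAAG 3 times and the *Dll4* window none of the 3 motifs. Of all 32851 promoter windows of this length, 29.5% held AGGAAG, 12% held CCGGAA and 21.6% held TGGGAA. Of the other members, 1 of the 2 *Dll1* windows held AGGAAG, and no window of the 8 members held CCGGAA or TGGGAA. A match is a description of letters and not a site, and the absence of one says only that the letters are not in the window.

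*Dll1*, a ligand that on endothelium and stroma instructs monocyte fate, was bright in all liver cells. KC gave 9.30, 9.20, 8.80 and 8.52, EC 8.50, 8.33, 8.28 and 8.54 and IC 8.19, 7.79, 7.63 and 7.88. The control means were 8.95 ± 0.36, 8.42 ± 0.13 and 7.87 ± 0.24, and every KC and EC sample lay above every IC sample. The shared fit called no comparison among liver cells. It takes in the tumor samples, where this probe had an SD of 2.42 in TM and 1.88 in TP. Its SE of 0.78 is larger than the spread within these control groups, so it could miss differences of this size. ET (8.11, 7.39, 8.20 and 8.27) lay below EC on 4 of 4 arrays, at -0.42 (SE 0.78, adjusted p = 1.00), and KT gave 8.26, 8.35, 8.45 and 9.10. IT gave 8.06 ± 0.71, with replicates 1, 3 and 4 at 8.23, 7.50 and 7.51 and replicate 2 the highest at 8.995. This probe has 10 spots on each array, whose log2 signals had an SD between 0.0528 and 0.19 where it was well above background. The deposited values of one liver group had an SD between 0.13 and 0.71. These are not plain means over the spots. After quantile normalization the spot means averaged 7.87 in IT, 7.71 in IC and 4.45 in TM, against deposited means of 8.06, 7.87 and 4.87. The other groups were closer. The part of this difference in the spread between samples was not tested. The other *Dll1* probe was well above background in no sample. In tumors the samples split. TM read 6.17, 3.49, 2.26 and 7.55 and TP 7.28, 7.16, 4.21 and 3.74, with replicates 1 and 4 of TM and 1 and 2 of TP well above background. TM lay below KC at -4.09 (SE 0.78, adjusted p = 8.73e-05) and TP below KT at -2.94 (SE 0.78, adjusted p = 0.00272). The genes most like it over the 32 samples were *Bcl3* (r = 0.94), *Slamf8* (0.93) and *Serpina3g* (0.93).

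*Jag1*, the ligand that opposes Dll4 in sprouting endothelium, was brightest in KT at 8.84, 8.97, 8.98 and 8.89, with KC at 8.74, 8.72, 7.94 and 8.79. IC gave 8.52, 8.53, 8.44 and 8.47 and IT 8.43, 9.05, 8.56 and 8.74. EC was the lowest liver group at 7.30, 7.83, 7.74 and 7.26, and ET read 8.35, 8.36, 8.47 and 8.34. Thus *Jag1* was higher in ET than in EC on 4 of 4 arrays, by 1.05, 0.52, 0.73 and 1.08, without overlap. The shared fit did not call this mean of 0.85 (SE 0.84, adjusted p = 1.00), while a fit on these 2 groups alone did (adjusted p = 0.0177), as did the t-test of the methods (adjusted p = 0.0395). Subtracting TP minus TM gave -1.83 (adjusted p = 0.659), which cannot measure the dye, since 2 TM samples were not well above background. The shared fit takes in the tumor samples, where the gene was split. TM read 7.89, 2.04, 1.90 and 7.87, bright in replicates 1 and 4 and not well above background in replicates 2 and 3. TP read 7.68, 7.02, 7.61 and 8.09, well above background throughout. TM lay below KC at -3.62 (SE 0.84, adjusted p = 0.000852), and TP against TM gave 2.67 (SE 0.84, adjusted p = 0.0816), called without replicate 1 (3.64, adjusted p = 0.00813) or 4 (3.49, adjusted p = 0.0168). TM replicates 1 and 4 were also those closer to TP over all bright probes.

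*Jag2* was well above background in no sample. It read 4.89, 4.23, 4.82 and 5.61 in TP and 1.95 to 3.08 elsewhere, so TP lay above TM on 4 of 4 arrays (adjusted p = 1.81e-08) and above KT (adjusted p = 2.2e-10). No fold is given, since both sides of each comparison were below that limit, and the count fell to 0 among probes well above background in a whole group.

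Of the targets, *Hes1*, a repressor that answers to Notch in many tissues, was brightest in control endothelial cells. EC read 7.71, 7.49, 7.47 and 7.74, IC 6.94, 6.86, 6.78 and 6.08 and KC 6.10, 6.32, 6.86 and 5.85, so every EC sample lay above every IC and KC sample. EC exceeded IC by 0.94 (SE 0.28, adjusted p = 0.0323), a call lost without array 4 (adjusted p = 0.0960) and whichever replicate was left out. KC lay below EC at -1.32 (SE 0.28, adjusted p = 0.00101). ET read 6.78, 6.40, 6.62 and 6.75, below every EC sample, with differences on the arrays of -0.92, -1.09, -0.85 and -0.99. Their mean, -0.96 (SE 0.28, adjusted p = 0.118), did not pass in the shared fit, but passed with normexp background correction (-0.66, adjusted p = 0.0113) and with a fit on these 2 groups (adjusted p = 0.00379). Subtracting TP minus TM left -0.40 (adjusted p = 0.835). KT read 5.40, 5.19, 5.66 and 6.13, with array differences of -0.71, -1.13, -1.20 and 0.28 that turn on array 4. The mean was -0.69 (SE 0.28, adjusted p = 0.554), or -1.01 without that array (adjusted p = 0.0588). IT read 5.83, 7.19, 5.78 and 6.61. KT lay below ET at -1.05 (SE 0.28, adjusted p = 0.00719), a call lost without replicate 1. TM (5.68, 6.48, 6.24 and 5.99) and TP (5.05, 5.46, 5.57 and 6.06) overlapped with Kupffer cells. In EC against ET, 5 of the 10 members did not overlap, namely *Notch1*, *Dll1*, *Dll4*, *Jag1* and *Hes1*, where 13% of all probes did not.

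*Hey1*, the other target and an endothelial effector of Notch, turned on array 4 in both cell types. KC read 6.24, 6.46, 6.33 and 8.10 and KT 8.25, 8.06, 8.03 and 6.40, so that replicate 4 was the highest of KC and the lowest of KT. IC read 7.09, 6.74, 6.58 and 7.99 and IT 7.91, 7.40, 7.98 and 6.78, again with replicate 4 highest in IC and lowest in IT. Array differences were 2.02, 1.60, 1.70 and -1.70 in Kupffer and 0.81, 0.66, 1.40 and -1.22 in Ito cells. With all arrays the means were 0.91 (SE 0.55, adjusted p = 0.772) and 0.41 (SE 0.55, adjusted p = 0.893). Without array 4 they were 1.77 (adjusted p = 0.0647) and 0.96 (adjusted p = 0.333), larger but not past the threshold. Neutrophil markers moved with the same samples, replicate 4 included, and their part was not tested. EC (7.67, 7.55, 7.57 and 7.70) and ET (8.05, 7.33, 7.73 and 7.98) differed by 0.15 (SE 0.55, adjusted p = 1.00). In tumors *Hey1* was well above background in 1 TM sample and 1 TP sample, with values of 3.88, 3.40, 2.48 and 5.59 and 3.29, 5.67, 3.92 and 4.87. TM lay below KC at -2.94 (SE 0.55, adjusted p = 6.66e-05) and TP below KT at -3.25 (SE 0.55, adjusted p = 1.58e-05), and those sizes rest on 1 of 4 samples above background on the tumor side. Both were called without array 4, at -2.50 and -3.68.

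**Figure D4:**
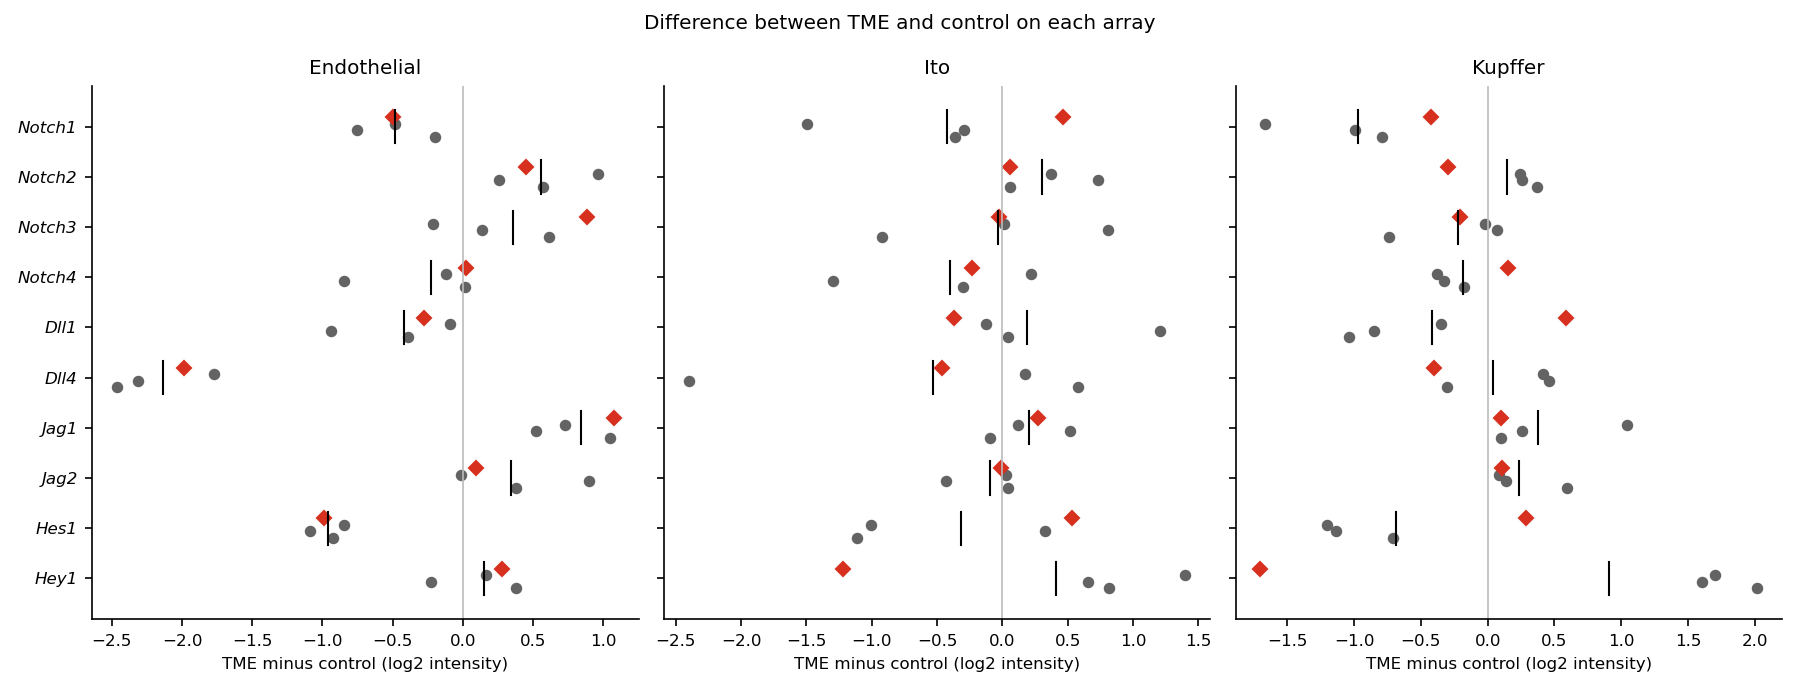
TME minus control difference in log2 intensity (x axis) on each array for the 10 genes (y axis) in endothelial, Ito and Kupffer cells, with a red diamond for array 4, grey circles for arrays 1 to 3 and a bar at the mean. *Dll4* in endothelial cells lies between -2.46 and -1.77 on all arrays, and *Hey1* in Kupffer cells is at -1.70 on array 4 and at 1.60 or above on the others.

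**Figure D5:**
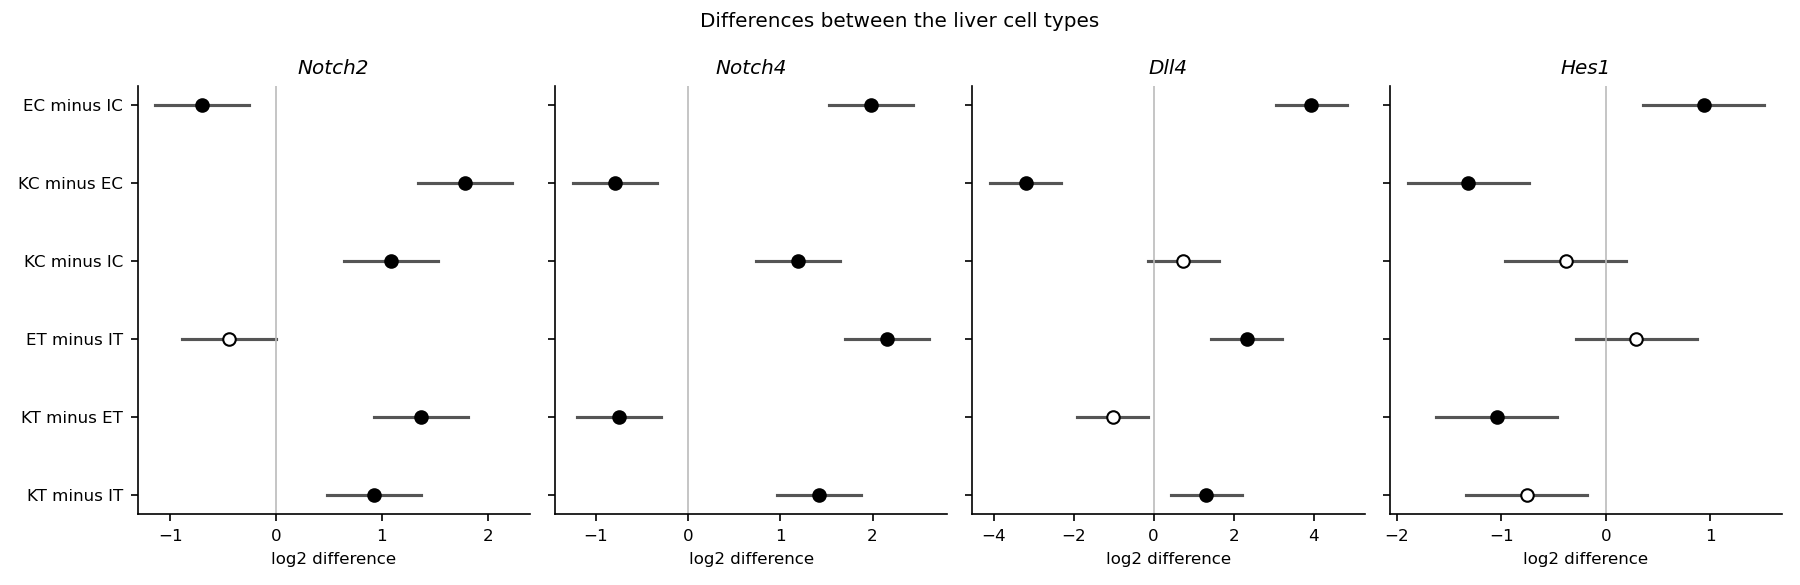
Log2 difference (x axis) with its 95% interval between pairs of liver cell groups (y axis) for *Notch2*, *Notch4*, *Dll4* and *Hes1*, with filled points for an adjusted p under 0.05. *Notch4* is called in all 6 pairs, positive for EC minus IC (1.99) and negative for KC minus EC (-0.79), and *Notch2* has the opposite sign in both (-0.69 and 1.78). The *Dll4* points for ET minus IT and KT minus IT rest on IT samples not well above background. In the groups of its other points, *Dll4* was well above background in 1 of 4 IC, 2 of 4 KC and 1 of 4 KT samples and in all EC and ET samples.

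The rest of the pathway was read from a list of 51 genes, of which 50 had a probe of their own, 34 of them well above background in all 32 samples and *Hey2* and *Heyl* in none. In ET against EC, 1 of the 50 was higher and 0 were lower, beside 1.14% of all probes. This was *Neurl1b*, a ubiquitin ligase that acts on Notch ligands, at 15.27, 15.19, 15.03 and 15.31 in EC and 16.11, 16.16, 16.20 and 16.20 in ET, a rise of 0.97 (adjusted p = 0.0292) that every array shared. *Mfng*, a fringe glycosyltransferase that tunes the receptors' choice of ligand, is named after its values were seen and did not pass. It read 9.45, 10.21, 10.21 and 9.44 in EC and 7.97, 9.19, 8.05 and 7.97 in ET, a difference of -1.53 (adjusted p = 0.107). None of the 50 was called in IT against IC, KT against KC or TP against TM. Without array 4 the counts higher and lower were 4 and 4 in IT against IC, beside 7.66% of all probes, and 1 and 0 in KT against KC, beside 3.85%. The one in Kupffer cells was *Aph1b*, a part of gamma-secretase (1.35, adjusted p = 0.0256), which was also higher in IT (1.31, adjusted p = 0.0179). It is named after its values were seen. The median log2 difference of the list was 0.01, 0.14, 0.11 and -0.09 in these 4 comparisons, that of the 10 members -0.04, -0.06, -0.07 and -0.33, and that of all probes lay between -0.01 and 0.01.

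Between control cells, 8 of the 50 were higher and 3 lower in EC than in IC, beside 9.89% of all probes. Of the 5 glycosyltransferases 4 were among those higher, led by *Mfng* (2.43, adjusted p = 0.000461) and *Rfng* (1.24, adjusted p = 0.00799). *Nrarp*, a Notch target that feeds back on the pathway, was well above background in all EC and ET samples and in no IC, IT, KC or KT sample. It read 4.58, 6.20, 5.93 and 4.65 in EC and 5.67, 6.02, 6.06 and 6.06 in ET, at least 1.47-fold above IC and at least 1.57-fold above IT. *Nrarp* was not confined to endothelial cells, since it was well above background in 10 of the 32 samples, tumor samples among them. In the fit without array 4 it was higher in TM than in KC (adjusted p = 0.00146) and not called in TP against KT (adjusted p = 0.140). Those lower in EC were *Aph1b* (-1.92), *Neurl1b* (-1.62) and *Dtx4*, of the Deltex ligases (-1.29), the last not called without array 4 (-1.16, adjusted p = 0.0553). KC against EC had 7 higher and 5 lower (21% of all probes), with *Neurl1b* (1.93) among the former and *Mfng* (-1.99) among the latter. KC against IC had 9 higher and 0 lower (14.8%), led by *Rfng* (1.46), *Furin*, the protease that matures the receptors (1.36), and *Ncstn*, the nicastrin of gamma-secretase (1.24). In the TME the counts were 3 higher and 4 lower in ET than in IT (8.26%), 11 and 6 in KT than in ET (21.8%), and 8 and 2 in KT than in IT (15.2%). Without array 4 the counts were 8 and 3 in EC against IC, 7 and 6 in KC against EC, 7 and 1 in KC against IC, 4 and 2 in ET against IT, 10 and 6 in KT against ET and 8 and 1 in KT against IT. *Neurl1b* (1.68) and *Lfng*, another fringe (1.38), were higher in KT than in ET, and *Pofut1*, which adds fucose to the receptors, was higher in ET than in IT (0.84).

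Tumor cells differed from Kupffer cells in most of the list, with 15 of 50 higher and 22 lower in TM than in KC, and 12 higher and 23 lower in TP than in KT, beside 39.4% and 43.6% of all probes. Of the ligases that act on ligands, *Neurl1a* was higher (3.62 in TM and 3.86 in TP) and *Neurl1b* lower (-3.82 and -4.27). *Psen2*, a catalytic part of gamma-secretase, was lower in both (-3.60 and -2.70). *Maml3*, a Mastermind co-activator, was higher in TM (3.01). *Hes2*, a further Hes gene, was well above background in no tumor sample and at least 2.23-fold lower in TM and 2.51-fold lower in TP. Of the 9 proteases and their partners, 5 were lower in TM and 6 in TP, and 0 were higher in either. Without array 4 the counts higher and lower were 14 and 21 in TM and 11 and 23 in TP, and the genes named for these comparisons were called. *Rbpj*, named after its values were seen because it is the pathway's DNA-binding protein, was higher in TM by 2.62 (adjusted p = 2.24e-07) and in TP by 1.54 (adjusted p = 0.000375). Both comparisons set a tumor source against a different cell type, and lie within a slide and a dye.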

How the data were processed

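Total RNA from 32 samples (100 ng each, per the study's methods) was labeled with Cy3 or Cy5 and hybridized as single channels on 16 Agilent mouse arrays. The authors extracted intensities with Feature Extraction 10.7.3.1 and deposited a table of 55681 probes of quantile-normalized linear intensity. This table was checked against the scanner files, whose own channel correlated with it after quantile normalization (r of at least 0.9999 per sample). Single values can still differ. The reading probe of *Dll1*, with 10 spots, averaged 4.87 in TM as deposited and 4.45 from the scanner files, and 8.06 and 7.87 in IT. The flag columns of the deposited scanner files gave which spots were well above background, and their processed, mean and background intensity columns served the alternatives. Positions carry no build name in the files. Saturated spots were 0 in every sample.

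Log2 of the deposited intensity was fitted with limma 3.58.1 in R 4.3.3 (lmFit and eBayes) as 8 group means, so that all groups share the estimate of spread. Contrasts were taken between TME and control, between cell types and between tumor and Kupffer cells, with interactions. P-values were adjusted by Benjamini-Hochberg over all probes, and an adjusted p under 0.05 was called with no minimum fold. The text names all 10 members. Of the rest of the pathway it names some, not all, of the up to 6 called genes per comparison with the largest absolute log2 difference. *Mfng* in ET against EC, *Rbpj* and *Aph1b* without array 4 are named after their values were seen. The 3 genes most alike by Pearson's r were named for the 3 members with the widest range of group means. The fit was tested on simulated data. A bound written as at least N-fold came from normexp, loess and Aquantile values with the lowest signal well above background as the floor. The members, the pathway list and the markers were chosen with earlier results of these data known. Alternatives were other scanner values, background corrections and scalings, a filter on dim probes, the array as a fixed or random block, fits on the compared groups, the t-test of the methods, its thresholds of 0.001 and 4-fold, another probe choice, the TP minus TM dye difference and leaving out each replicate. A fit without array 4 of the Ito and Kupffer cells was added after seeing the data, and was read for all member probes and the pathway list. Figures were drawn with matplotlib 3.10.9 in Python 3.11.15.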

Additional observations from a re-analysis of the deposited data

Results flagged for a closer look

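Within 62 sets of 4 samples, each a member gene in a group where it was well above background at least once, 6 held a sample whose distance to its nearest neighbour took up most of the range of the set, by Dixon's criterion at 95%. Chance alone gives about 1 in 20 such sets. *Hey1* was 8.10 in KC replicate 4, with the next sample at 6.46, and 6.40 in KT replicate 4, with the next at 8.03. These are the 2 samples of Kupffer array 4, on which differences ran opposite to the other arrays (correlation -0.60 with their mean over 17050 probes). *Notch1* was 7.33 in KC replicate 3, next 6.40, and *Jag1* was 7.94 in that same sample, next 8.72. KC replicate 3 also had the lowest Kupffer marker mean of its group, 13.16. *Notch4* was 9.49 in ET replicate 2, next 10.12. This sample had the lowest endothelial marker mean of ET, 11.48. *Notch3* was 4.55 in TM replicate 4, next 2.00, the only sample in which it was well above background. The causes were not tested.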

How the results depend on the processing

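No member that was called changed direction under any alternative run. The fit called 32 differences of single members. Of these, 32 held with scanner values and with the array as a random block, 29 with normexp, 28 with loess, 30 at the 75th percentile, 29 in fits on the groups compared, 29 with the probe of highest variance, 25 with the t-test, 12 at the stricter thresholds and 24 to 28 without a replicate. Where an alternative could test fewer, 30 of 30 held with the filter on dim probes, 25 of 30 without array 4, 2 of 2 with the fixed block and 0 of 1 with TP minus TM subtracted. Counts of members called are given below where they moved by over 1.5 times. In ET against EC the count of 1 became 2 with normexp and with loess, 3 in a fit on these groups and 3 with the t-test of the methods, and 0 at the stricter thresholds. Leaving out a replicate gave 0 to 1, with 0 without replicate 1 or without replicate 2. With TP minus TM subtracted the count stayed at 1, but the gene was *Jag2* and no longer *Dll4*. Neither gene was well above background in any tumor sample, so this subtraction cannot measure a dye effect on them. In IT against IC and KT against KC the count of 0 became 1 and 1 with TP minus TM subtracted, *Jag2* in both, which was well above background in no sample and carries the tumor difference over, and in KT against KC 1 without array 4. In TP against TM the count of 1 became 0 with the filter on dim probes, 0 with the t-test of the methods and 2 with the probe of highest variance, and leaving out a replicate gave 1 to 2. In EC against IC the count of 4 became 2 at the 75th percentile scaling, 1 at the stricter thresholds, 2 without array 4 and 2 to 2 without each replicate, *Notch4* and *Dll4* each time. At the stricter thresholds KC against EC went from 4 to 1, KC against IC from 2 to 0, KT against ET from 3 to 0, KT against IT from 3 to 0 and TP against KT from 6 to 3. KC against IC became 1 with the probe of highest variance, ET against IT 1 with loess, and KT against ET 5 in a fit on its groups and 1 to 3 without each replicate, with *Notch2* alone called without replicate 1. TM against KC went from 6 to 3 in a fit on its groups and 2 with the t-test. The differences of the endothelial change from the Ito and the Kupffer change, 0 in the shared fit, became 1 and 1 with normexp and 1 and 1 with loess, *Dll4* in each. With normexp these were -1.05 (adjusted p = 0.0192) and -1.23 (adjusted p = 0.00451), against cells where *Dll4* was at most partly above background. The cause was not tested, apart from the stricter thresholds and the filter, which remove calls by construction. The mean of all group levels moved from 6.24 to 6.20 with scanner values, past the SD for *Jag2* in EC and KC alone. The array as a fixed replicate block left the counts at 1 for ET against EC and 1 for TP against TM and at 0 elsewhere, so the pairing changed no call. Samples of the same number deviated together with correlations of -0.64 to 0.40. Scaling to the 75th percentile shifted the median difference of all probes to 0.11 in TP against TM, -0.295 in EC against IC, 0.18 in KC against EC, -0.19 in KC against IC, 0.50 in TM against KC and 0.61 in TP against KT, from 0.10 or less. The signal of *Jag2*, *Notch3* and, outside endothelial cells, *Dll4* over background limits what can be said of them.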
